A study of Mus musculus with 24 samples.

Results

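The change between the last 2 sampled days was measured in osteoblasts, the bone-forming cells, grown from mouse skull in culture. Every library taken at day 15 or day 21 of osteoblast differentiation was used, which came to 12 of the 24 libraries of the series. They came from 6 cultures, each sampled on both days: 3 of wild-type mice (WT) and 3 of a high bone mass line (HBM), whose mutation the labels do not name. Each culture was started from skull caps (calvariae) of newborn mice that had been pooled, so a culture stands for several animals and may hold other cell types of the skull. The labels number the cultures of each genotype as batches 18, 19 and 21. The same number on 2 days was read as 1 culture sampled again, which the labels do not state outright, and a WT and an HBM culture with the same number share a batch and are not fully independent. All 12 libraries were made from polyadenylated RNA of differentiating cultures, and the groups differ only in genotype, day and batch as labelled.

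Osteoblasts in culture first multiply, then deposit a collagen I matrix and then mineralize it. In the late phase they express osteocalcin, and some become buried in the matrix as osteocytes, the cells that sense load and secrete sclerostin. Cells that leave the cell cycle switch off the genes of DNA replication and mitosis together, because a few regulators bind short motifs shared by those promoters.

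The 12 libraries held 28039095 to 46987734 counts. Levels are CPM, a gene's counts over the library's total in units of 1e6, with edgeR's TMM factors (trimmed mean of M values). The 2 chains of collagen I, Col1a1 and Col1a2, took 4.5% to 18.0% of a library's counts at day 15 and 5.62% to 16.4% at day 21. Osteoblast markers were high in both periods: bone sialoprotein (Ibsp) was at 255 to 3340 CPM at day 15 and 477 to 2550 at day 21. Markers of other cells were present too, and are given with the results they touch. The libraries of 1 culture on the 2 days deviated together from their group means, with correlations across genes of 0.84, 0.844 and 0.881 in WT batches 18, 19 and 21 and of 0.881, 0.689 and 0.895 in the HBM batches. In HBM batch 19 the day 15 library correlated better with the day 21 library of another culture, at 0.804. The bone results that turn on this culture are given with and without it.

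Of 16050 genes tested, 684 (4.26%) passed an adjusted p of 0.05 in the comparison within cultures. Of these, 308 (1.92%) were higher at day 21 and 376 (2.34%) were lower. The changes were small: the median of the genes that rose was 0.41 on the log2 scale, a 1.33-fold rise, and that of the genes that fell was -0.36, to 0.782 of the day 15 level. At least 2-fold changes that passed were found in 44 genes (0.274%), 30 higher and 14 lower. The median log2 change of all genes was 0.0. Values were higher in all 6 cultures for 1033 genes (6.44%) and lower in all 6 for 1227 (7.64%). Every log2 change is the model's estimate with its standard error (SE), and every adjusted p is from edgeR's quasi-likelihood test with Benjamini-Hochberg adjustment over all genes tested.

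The count depended on the fit. Without the culture as a block, 0 genes passed and 784 of 16050 had an unadjusted p under 0.05. With the block kept and all 24 libraries in 1 fit, 0 passed and 891 of 16592 had an unadjusted p under 0.05. Where no gene changes, a share of about 0.05 of the genes has such a p, and both counts were near it. The cause of the loss with all 24 libraries was not tested. The blocked fit had 3702 genes at that unadjusted level. Summing the WT and HBM counts of each batch, which leaves 3 pairs, called 21 genes. It left 0 calls in the cell cycle, sterol, respiratory chain, osteoblast, Wnt, p53 and clock lists described below, 0 fallen immediate early genes, 2 stress response genes and 1 osteoclast gene. The count was 92, 80, 185, 203 and 455 without the culture WT batch 18, WT batch 19, WT batch 21, HBM batch 18 and HBM batch 19, respectively. Of the 684 genes, 57 passed in each of the 6 fits that left out 1 culture, 43 of them higher and 14 lower. Genes with short transcripts fell more often: 3.21% of the shortest 20% of genes fell and 0.93% rose, against 1.53% and 2.31% of the longest 20%. An offset for transcript length and GC content, added after the data were seen, gave 307 genes higher and 382 lower. Of these 689 genes, 568 were among the 684.

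**Figure D1:**
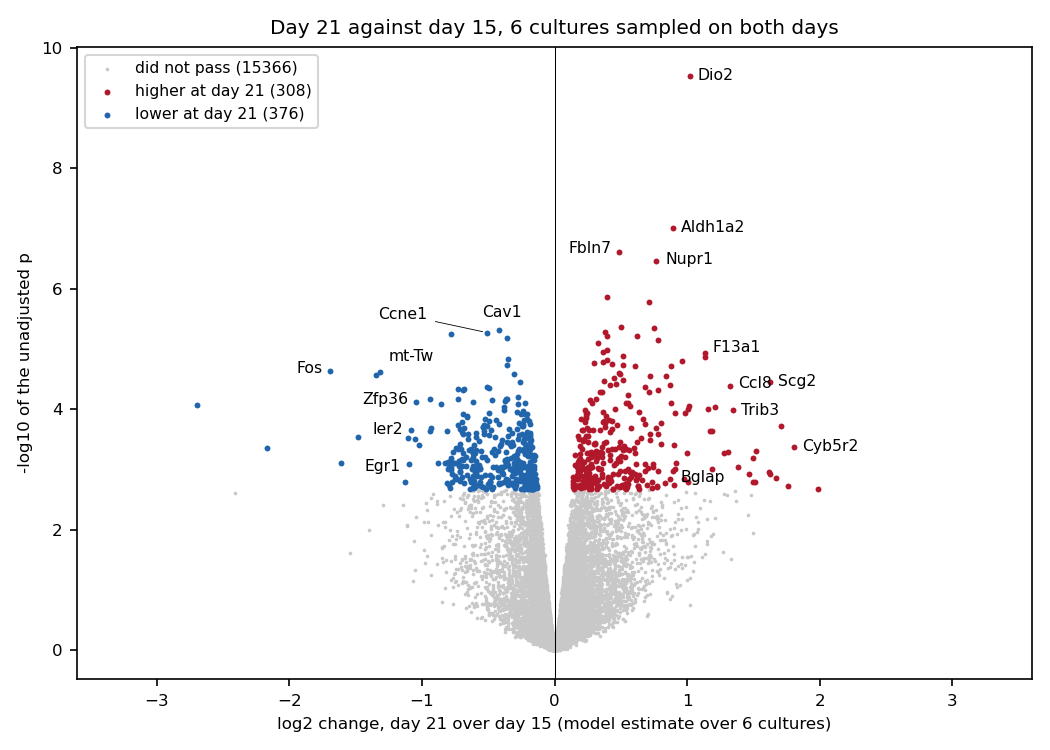
Each point is 1 of 16050 genes; the x axis is the log2 change from day 15 to day 21 over 6 cultures and the y axis is -log10 of the unadjusted p. Red points are the 308 genes that were higher and passed, blue points the 376 that were lower and passed, and Dio2 stands highest.

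The gene with the smallest p was Dio2, the deiodinase that makes active thyroid hormone inside cells. It was at 8.97, 28.9 and 58.0 CPM (lowest, median and highest of 6 cultures) on day 15, then 19.1, 56.4 and 119 CPM on day 21. The 2 days overlapped because the cultures stood at different levels, yet each culture about doubled, by 0.9 to 1.11 on the log2 scale. The estimate was 1.02 (SE 0.0385, adjusted p = 4.64e-06), a 2.03-fold rise in 6 of 6 cultures. In WT batch 19 it went from 58.0 to 119 CPM and in HBM batch 21 from 8.97 to 19.1 CPM.

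The next genes by p described here were also higher in each culture, with smaller estimates than that of Dio2. Aldh1a2, an enzyme that makes retinoic acid, was at 3.13, 7.31 and 18.6 CPM on day 15, then 5.23, 14.9 and 35.1 CPM on day 21. It rose 1.85-fold (log2 0.89, SE 0.0627, adjusted p = 0.000779). Fbln7, a fibulin of the extracellular matrix, rose by 0.49 (SE 0.0379, adjusted p = 0.00129), and its 6 cultures ran from 0.4 to 0.62. Gdf10, a secreted ligand of the TGF-beta superfamily, was at 305, 403 and 449 CPM on day 15, then 442, 559 and 670 CPM on day 21. The highest day 15 library of Gdf10 lay just above the lowest day 21 library, and the gene rose 1.41-fold (log2 0.5, SE 0.0534, adjusted p = 0.00688). Myo1d, an unconventional myosin, rose by 0.4, Adgrf5, an adhesion G protein-coupled receptor, by 0.71, and Vit, the matrix protein vitrin, by 0.75, with adjusted p = 0.00434, 0.00434 and 0.00688. Each of these 7 genes was higher in 6 of 6 cultures and passed whichever culture was left out.

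**Figure D2:**
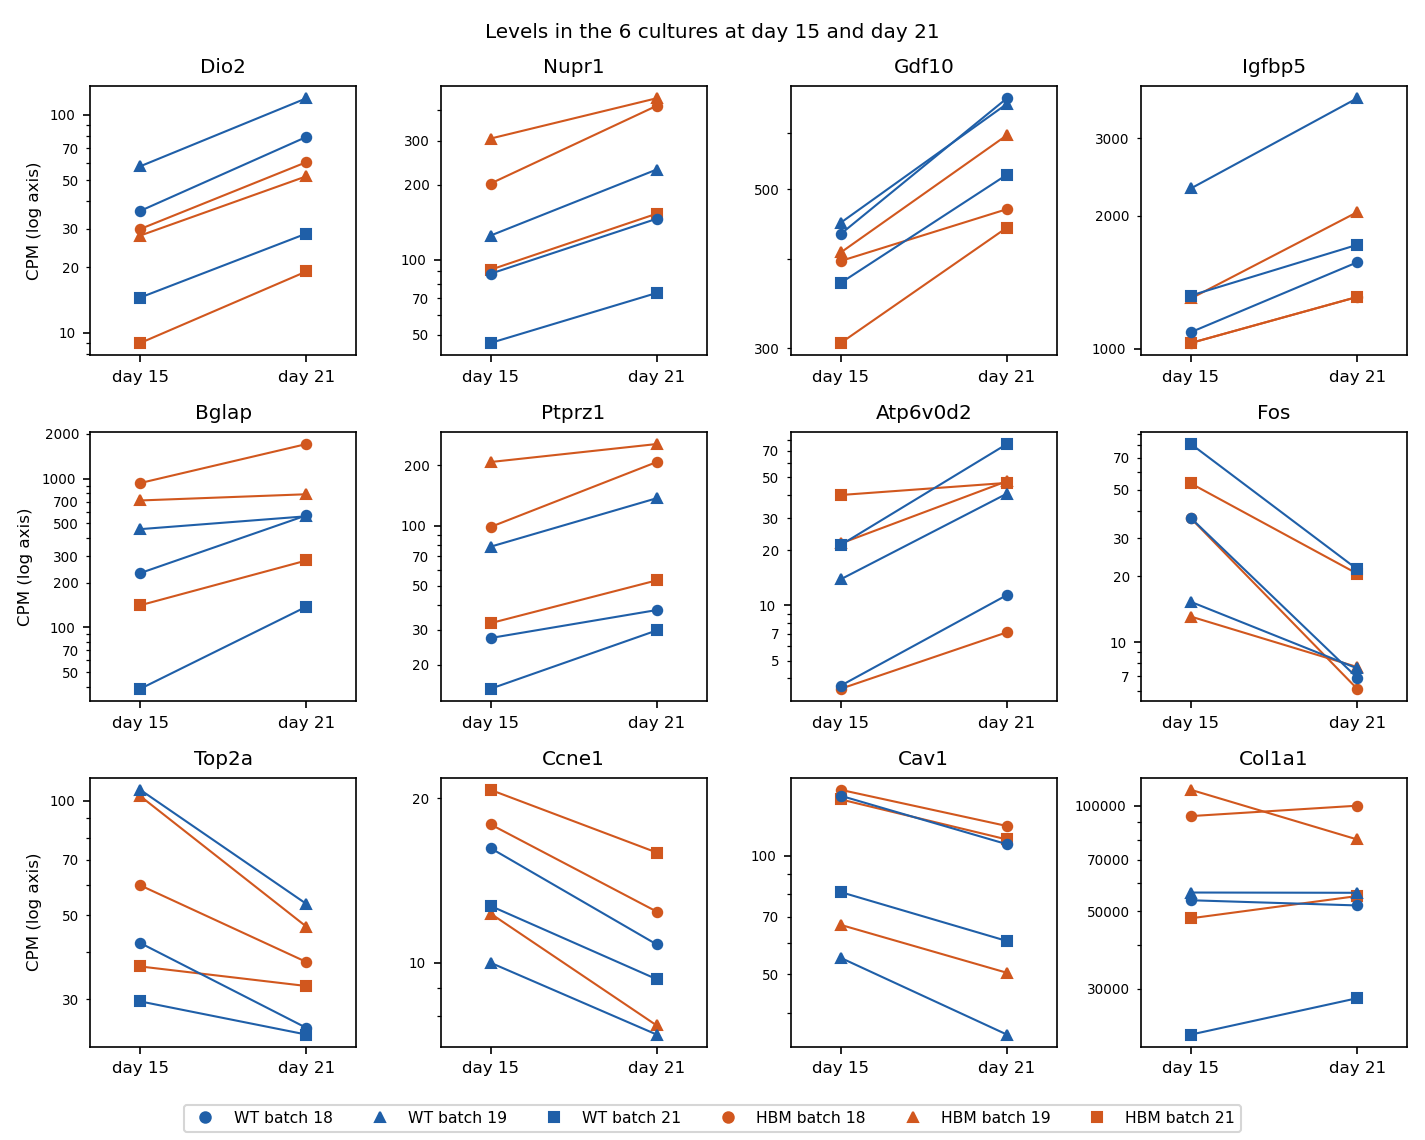
Each panel gives 1 gene's CPM (log axis) at day 15 and day 21, with a line for each of 6 cultures; blue lines are WT, orange lines HBM, and the marker gives the batch. The lines of Dio2 run parallel although the cultures span 8.97 to 58.0 CPM at day 15, while those of Col1a1 go up and down.

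The largest rises were in genes of low level and differed between cultures. Scg2, secretogranin II, a secretory granule protein, was at 1.57, 17.2 and 42.8 CPM on day 15, then 8.08, 50 and 75.0 CPM on day 21, with single cultures between 0.81 and 2.94 (log2 1.63, SE 0.224, adjusted p = 0.0124). F13a1, the A subunit of coagulation factor XIII, a crosslinking enzyme, was at 18.5, 39.2 and 81.0 CPM and then 32.7, 94.5 and 174 CPM, a 2.19-fold rise (log2 1.13, SE 0.137, adjusted p = 0.00935). Cilp2, a matrix protein best known from cartilage, also rose 2.19-fold (SE 0.139 on the log2 scale, adjusted p = 0.00971). Large estimates were also found in 3 genes that stayed at or below 17.5 CPM on both days: Cyb5r2, a cytochrome b5 reductase (log2 1.81, SE 0.342), Soat2, which esterifies cholesterol (1.71, SE 0.291), and Adm2, the hormone intermedin (1.52, SE 0.295). Their single cultures ran from 0.11 to 2.83, 0.29 to 2.41 and 0.3 to 2.36. The long noncoding RNA Neat1, the scaffold of nuclear paraspeckles, was at 197, 269 and 400 CPM on day 15, then 325, 478 and 628 CPM on day 21 (log2 0.72, SE 0.131, adjusted p = 0.0265).

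Among the abundant genes that rose, Igfbp5, the binding protein of insulin-like growth factors that osteoblasts store in bone matrix, was at 1030, 1200 and 2310 CPM on day 15, then 1310, 1640 and 3700 CPM on day 21. It rose 1.4-fold (log2 0.48, SE 0.064, adjusted p = 0.0111), in 6 of 6 cultures. Gpx3, a secreted glutathione peroxidase, went from a median of 1500 to 2030 CPM (log2 0.43, adjusted p = 0.0215). Islr, a marker of mesenchymal cells, rose by 0.26 and Itgbl1, a secreted integrin-like protein, by 0.37 (adjusted p = 0.0231 and 0.0274). The libraries of the 2 days overlapped for each of these genes.

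Genes that fell with a small p were lower in each culture, by amounts that differed between cultures. Caveolin 1 (Cav1), the coat protein of caveolae, was at 55.1, 110 and 147 CPM on day 15, then 35.2, 83.7 and 119 CPM on day 21. It fell to 0.747 of its day 15 level (log2 -0.42, SE 0.0458, adjusted p = 0.00688), with WT batch 19 at -0.65 and the others between -0.43 and -0.3. Nxn, a thioredoxin-like regulator of Wnt signalling, and Serpinb1a, an inhibitor of neutrophil proteases, fell by 0.36 and 0.35 (adjusted p = 0.00688 and 0.00972). Itga6, the integrin chain that binds laminin, fell by 0.36 (adjusted p = 0.00972). Mrpl14 and mt-Tw, next, were the 2 named genes that fell without overlap between the days. Mrpl14, a protein of the mitochondrial ribosome, was at 23.8, 25.6 and 26.8 CPM and then 18.2, 20.8 and 22.4 CPM (log2 -0.31, SE 0.0409, adjusted p = 0.0111). The mitochondrial tryptophan transfer RNA, mt-Tw, was at 1.43, 1.73 and 2.49 CPM and then 0.544, 0.781 and 0.879 CPM (log2 -1.31, SE 0.173, adjusted p = 0.0111). Reads of longer mitochondrial transcripts that run across this transfer RNA could not be told apart from it. Lower levels were also found for Carmn, a noncoding RNA of smooth muscle (log2 -0.94), and Ooep, a gene known from oocytes (-0.86), both at a few CPM, and a rise of 1.19 for Pianp, a membrane protein that binds an immune receptor.

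Abundant genes that fell did so by small steps. Lgals1, the lectin galectin 1, went from a median of 1320 to 1160 CPM (log2 -0.21, adjusted p = 0.0482). Rpl41, a small ribosomal protein, went from 682 to 546 CPM (log2 -0.29, adjusted p = 0.0345). Ccn1, a matricellular protein induced by stretch and serum, was at 290, 596 and 612 CPM and then 216, 330 and 466 CPM (log2 -0.54, SE 0.0937, adjusted p = 0.0234). Tmsb10, a thymosin that binds actin monomers, S100a6, a calcium-binding protein, and Itm2a, a membrane protein of early chondrogenic and myogenic cells, fell by 0.27, 0.32 and 0.38. The noncoding RNA Rian, of the imprinted Dlk1-Dio3 region, fell by 0.27 (adjusted p = 0.0217).

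The bone matrix genes changed little as a group. Of 22 osteoblast transcription factors and matrix genes, 3 rose and 1 fell, beside 1.92% and 2.34% of all genes. Of the 22, 21 had a value above 0, and their median was 0.18 beside 0.0 for all genes tested. The list's medians were 0.51 and 0.326 in the WT and HBM cultures of batch 21, 0.236 and 0.254 in those of batch 18 and 0.101 and -0.297 in those of batch 19. Osteocalcin, the late matrix protein of osteoblasts, was among the risers: Bglap was at 38.7, 345 and 935 CPM on day 15, then 138, 563 and 1710 CPM on day 21. In all 6 cultures it was higher on the later day, by 0.13 in HBM batch 19 and 0.28 in WT batch 19 and by 0.87 to 1.84 in the other four. The estimate was 0.89 (SE 0.193, adjusted p = 0.0396), and its near copy Bglap2 gave 0.8 (SE 0.149, adjusted p = 0.0278). How reads shared by these 2 genes were counted is not given in the sources used here, so their values are not independent. Runx2, the factor that commits cells to the osteoblast lineage, was at 56.1, 82.0 and 118 CPM and then 64.5, 95.1 and 118 CPM. It rose 1.13-fold (log2 0.18, SE 0.0404, adjusted p = 0.0439), in 5 of 6 cultures, with HBM batch 19 at -0.01. Msx2, a homeobox factor of early skull bone cells, fell by 0.28 (SE 0.0567, adjusted p = 0.0345). With the length and GC offset 19 of the 22 had a value above 0, and with no replicate block 16. Without both cultures of batch 21 the number was 15, with a median of 0.071. None of the list rose without WT batch 18, WT batch 19, HBM batch 18 or HBM batch 21, 1 rose without WT batch 21, and 7 rose without HBM batch 19.

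The 150 bases before the start of Bglap, on chromosome 3, are shown because Runx factors are known to bind the osteocalcin promoter. The sequence is from RefSeq for GRCm38.p6, the assembly also called mm10 (chr3:88384467-88384616, minus strand), 5′ to 3′, with the 1 match to the Runx letters TGTGGT, searched on both strands, in capitals.
Bglap: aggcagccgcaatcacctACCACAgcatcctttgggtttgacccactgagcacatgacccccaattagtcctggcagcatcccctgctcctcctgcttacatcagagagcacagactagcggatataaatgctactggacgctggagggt
In windows from 250 bases before to 50 after a start, 12.8% of the 15000 windows of tested genes held these letters, as did 4 of 19 windows (21.1%) of the osteoblast list. Windows were found for 11735 of the 16050 genes. A match is a description of letters and not evidence of binding.

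Most matrix genes did not pass. Col1a1, the alpha 1 chain of collagen I and the most abundant of these transcripts, was at 22200, 55100 and 111000 CPM on day 15, then 28200, 55800 and 100000 CPM on day 21, higher in 3 cultures and lower in 3 (log2 0.02, SE 0.131, adjusted p = 0.954). Col1a2, the alpha 2 chain, gave 0.05 (SE 0.135, adjusted p = 0.885). Bmp1, a metalloproteinase that cuts the C-propeptide off procollagen, gave -0.01 (SE 0.0676) and Pcolce, which enhances that cleavage, gave -0.01 (SE 0.0576). Among 33 genes of procollagen modification, export, processing and crosslinking, 1 rose and 1 fell, beside 1.92% and 2.34% of all genes. Creb3l1, a factor that drives collagen I transcription, rose (0.19, adjusted p = 0.0337). Tll1, a protease of the Bmp1 family, fell (-0.37, adjusted p = 0.0439). Without WT batch 18, WT batch 19, WT batch 21 or HBM batch 18, 0 of the 33 passed. None of 19 fibrillar and fibril-associated collagens passed, and their median was -0.054.

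Mineral and osteocyte genes had wide spreads between cultures. Alkaline phosphatase (Alpl), which frees phosphate for mineral, was at 94.2, 278 and 650 CPM and then 131, 390 and 545 CPM (log2 0.34, SE 0.107, adjusted p = 0.0985). Ibsp gave 0.18 (SE 0.199), osteopontin (Spp1) 0.1 (SE 0.163) and Sp7, the osterix factor downstream of Runx2, 0.3 (SE 0.116), and none passed. The change in HBM batch 19 was -0.26 for Alpl, -0.84 for Ibsp, -0.65 for Spp1 and -0.3 for Sp7. Sost, which encodes sclerostin, was at 1.3, 15.3 and 96.7 CPM and then 3.48, 31.0 and 75.9 CPM. It was higher in 5 of 6 cultures, by 0.38 to 1.87, and lower in HBM batch 19, at -0.35 (estimate 0.87, SE 0.269, adjusted p = 0.0943). Dmp1, an acidic matrix protein of osteocytes, was lower in 6 of 6 cultures and did not pass (-0.42, SE 0.136, adjusted p = 0.107), with HBM batch 19 at -1.26. Phex, a peptidase that limits phosphate loss, gave 0.24 (SE 0.161) and Mepe, a phosphoglycoprotein of osteocytes, 0.41 (SE 0.474), with HBM batch 19 at -0.71 and -1.68. Without that culture 4 of these genes passed: Alpl at 0.463, Sp7 at 0.424, Phex at 0.44 and Sost at 1.22, with adjusted p of 0.0187, 0.0389, 0.0308 and 0.0201. Ibsp at 0.384, Spp1 at 0.249, Dmp1 at -0.262 and Mepe at 0.909 did not. Fgf23, the phosphate hormone, had 0 to 7 counts at day 15 and 0 to 9 at day 21 and was not tested. Of 11 osteocyte genes tested only Ptprz1 rose, a receptor phosphatase, from 15.2, 55.3 and 208 CPM to 29.8, 95.1 and 256 CPM (log2 0.72, SE 0.0963, adjusted p = 0.0114). Ank, which carries pyrophosphate out of the cell, was the 1 of 15 mineralization genes to rise (0.27, SE 0.0572, adjusted p = 0.0377). Over all genes 1.92% rose. Without HBM batch 19, 3 osteocyte genes rose and 1 fell. In that fit 3 mineralization genes rose, but Ank did not pass (0.254, adjusted p = 0.0715). Leaving out any other single culture gave 1 risen osteocyte gene. None of the mineralization genes rose without WT batch 18, WT batch 19 or HBM batch 18. The number was 1 without WT batch 21 and 2 without HBM batch 21.

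**Figure D3:**
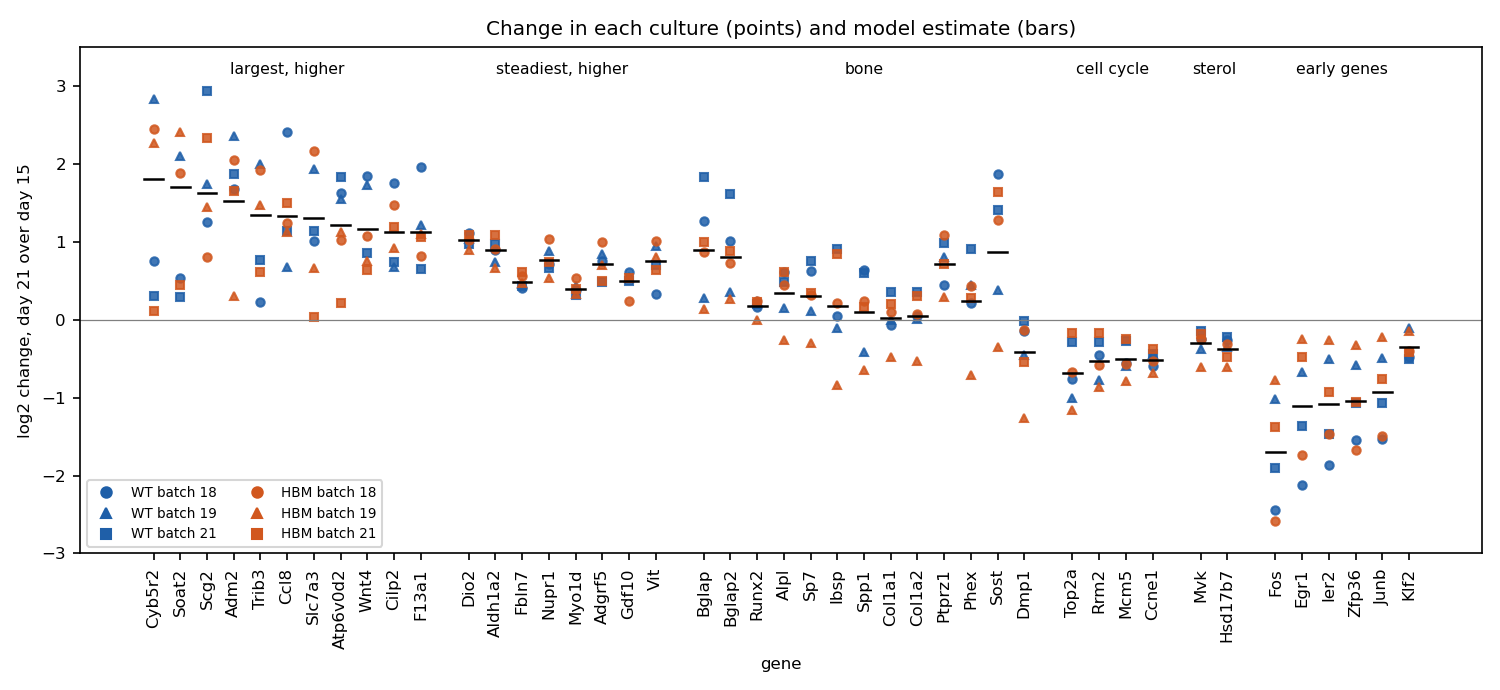
Points give the log2 change from day 15 to day 21 in each of 6 cultures and bars the model estimate, with genes grouped by role. The points of Dio2 lie within 0.9 to 1.11, those of Ibsp between -0.84 and 0.91, and HBM batch 19 is the lowest point of each bone gene shown.

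Many genes of the cell cycle were lower at day 21. Of 34 cell cycle and DNA replication genes, 18 fell and 0 rose, beside 2.34% of all genes that fell, and all 34 had a value below 0, also with DESeq2's size factors and with the length and GC offset. The list's median was -0.583. Top2a, the topoisomerase that untangles chromosomes at mitosis, was at 29.6, 51.0 and 107 CPM on day 15, then 24.2, 35 and 53.5 CPM on day 21. It fell to 0.621 of its day 15 level (log2 -0.69, SE 0.118, adjusted p = 0.0231), by 1.15 in HBM batch 19 and by 0.18 in HBM batch 21. Ccne1, cyclin E1, which starts DNA replication, was at 10.0, 14.5 and 20.7 CPM and then 7.39, 10.1 and 15.9 CPM (log2 -0.51, SE 0.0565, adjusted p = 0.00688). Mcm5, of the replication helicase, fell by 0.51 (SE 0.0718, adjusted p = 0.0133) and Rrm2, a subunit of ribonucleotide reductase, by 0.53 (SE 0.0873, adjusted p = 0.0211). The mitotic genes Plk1, Birc5, Cdc20 and Aurka fell by 0.81, 0.80, 0.79 and 0.78, with adjusted p between 0.0355 and 0.038. Among the genes outside the list, Fam83d, a spindle protein, and Parpbp, which restrains homologous recombination, fell by 0.94 and 0.88, and Lmnb1, a lamin that falls in senescent cells, fell by 0.66.

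The size of this fall followed the batch. The list's median was -0.978 and -1.15 in the WT and HBM cultures of batch 19, -0.469 and -0.585 in those of batch 18 and -0.209 and -0.098 in those of batch 21. Leaving out WT batch 18, WT batch 19, WT batch 21, HBM batch 18 and HBM batch 19 gave 2, 1, 9, 2 and 11 fallen genes in place of 18. Without batch 21 the count was 26, without batch 19 it was 2, and without batch 18 it was 0, with a median of -0.614. In bulk RNA, fewer dividing cells and less of these transcripts per cell cannot be told apart.

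Promoters of Top2a and Mcm5 are shown because the letters they share with other cell cycle genes are known sites of the regulators of that programme. Both sequences are the 150 bases before the RefSeq start (GRCm38.p6), 5′ to 3′: Top2a at chr11:99024190-99024339 on the minus strand and Mcm5 at chr8:75109359-75109508 on the plus strand. In Top2a, capitals mark 4 CCAAT boxes (letters CCAAT) and 1 match to the cell cycle homology region (letters TTTGAA). In Mcm5 they mark 1 match to the E2F letters TTTNNCGC. Each was searched on both strands of the promoter named with it, and no marked match overlaps another. Only the E2F letters were marked in Mcm5, whose stretch also holds the letters CCAAT, left in lower case.
Top2a: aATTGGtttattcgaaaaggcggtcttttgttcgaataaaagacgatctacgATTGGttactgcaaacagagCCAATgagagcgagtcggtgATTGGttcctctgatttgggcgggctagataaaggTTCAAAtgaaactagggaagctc
Mcm5: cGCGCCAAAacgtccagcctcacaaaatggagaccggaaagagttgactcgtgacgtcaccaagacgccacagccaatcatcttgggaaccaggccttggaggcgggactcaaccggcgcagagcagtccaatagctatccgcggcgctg
The cell cycle homology letters were held by 12.2% of all windows, by 24.3% of the 346 windows of genes that fell, by 13% of the 284 windows of genes that rose and by 7 of 15 windows of the fallen cell cycle genes. CCAAT was in 37.3% of all windows, 50.9% of those of fallen genes and 30.6% of those of risen genes. The E2F letters were in 7.8%, 14.2% and 6.0% of them. These shares were not tested.

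Immediate early genes are those that cells induce within minutes of a stimulus. Of 22, 8 fell and 1 rose, beside 2.34% and 1.92% of all genes, and 5 had a value above 0. Their median was -0.298, at -0.067 and -0.014 in the WT and HBM cultures of batch 19. Fos, a subunit of the AP-1 factor, was at 13.1, 37.0 and 80.8 CPM on day 15, then 6.12, 7.65 and 21.6 CPM on day 21. It fell to 0.31 of its day 15 level (log2 -1.69, SE 0.221, adjusted p = 0.011), in 6 of 6 cultures. Egr1, a zinc finger factor, was at 72.9, 177 and 202 CPM and then 42.4, 61.4 and 122 CPM (log2 -1.1, SE 0.229, adjusted p = 0.0358). Zfp36, which destabilizes cytokine mRNAs, fell by 1.05 (adjusted p = 0.0167), Ier2 by 1.09 and Junb, another AP-1 subunit, by 0.93 (both adjusted p = 0.0231). Klf2, Dusp1, a phosphatase of MAP kinases, and Ier3 completed the 8, at -0.35, -0.77 and -0.61. Ptgs2, the inducible cyclooxygenase, fell by 1.05 (SE 0.191, adjusted p = 0.0257). Atf3, a stress-induced member of the same list, rose by 0.76.

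The batches differed in these genes in another order than in the cell cycle genes. Fos fell by 2.44 and 2.58 in the WT and HBM cultures of batch 18, by 1.9 and 1.38 in batch 21 and by 1.01 and 0.77 in batch 19. Its day 15 level was also the lowest in batch 19, at 15.3 and 13.1 CPM, against 36.9 to 80.8 CPM in the other four cultures. At day 10 Fos was at 7.41 to 11.2 CPM in batches 18 and 19, below day 15, and at 98.2 and 109 CPM in batch 21, above day 15. The time from feeding or handling to harvest is not given in the labels, and its part in these values was not tested. The number of fallen genes was 2, 3, 2 and 2 without WT batch 18, WT batch 19, WT batch 21 and HBM batch 18, respectively, and 1 without both cultures of batch 18 or both of batch 21.

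Of 22 genes of sterol synthesis and uptake, 6 fell and 0 rose, beside 2.34% of all genes that fell, all 22 had a value below 0, and the median was -0.299. Mvk, mevalonate kinase, was at 24.5, 31.5 and 39.5 CPM and then 21.3, 23.0 and 33.3 CPM (log2 -0.3, SE 0.06, adjusted p = 0.032). The libraries of the days overlapped, and each culture was lower on the later day. Hsd17b7, a reductase of the pathway, fell by 0.37 (adjusted p = 0.0167) and Fdft1, squalene synthase, by 0.42 (adjusted p = 0.0458). The list's medians were -0.736 and -0.432 in the HBM and WT cultures of batch 19 and between -0.244 and 0.005 in the other four. Without WT batch 19, 0 of the 22 passed and the median was -0.248. Without WT batch 18, WT batch 21 and HBM batch 18, 2, 1 and 1 passed, and without HBM batch 21, 2 passed. Without HBM batch 19, 5 passed and the median was -0.176. Without both cultures of batch 19, 0 passed, 3 had a value above 0 and the median was -0.109. Without both of batch 18 and both of batch 21, 0 and 2 passed, with medians of -0.329 and -0.371.

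The integrated stress response slows translation and raises the factor ATF4, whose targets supply amino acids and report stress. Of 20 targets, 6 rose and 0 fell, beside 1.92% of all genes that rose, 19 had a value above 0, and the median was 0.546. The list's medians were 0.916, 0.676 and 0.538 in WT batch 19, HBM batch 18 and HBM batch 19 and 0.094 to 0.177 in the other three. Nupr1, a stress-induced chromatin protein, was at 46.4, 108 and 306 CPM on day 15, then 73.6, 192 and 444 CPM on day 21, and rose by 0.53 to 1.04 in all 6 cultures (estimate 0.76, SE 0.0618, adjusted p = 0.00137). Trib3, a pseudokinase that dampens ATF4, was at 2.3, 4.13 and 36.8 CPM and then 2.99, 13.3 and 102 CPM (log2 1.35, SE 0.213, adjusted p = 0.0187). Its rise was 1.47 to 2.0 in both cultures of batch 19 and in HBM batch 18 and 0.22 to 0.76 in the other three. Mthfd2, a mitochondrial folate enzyme, rose by 0.51 (adjusted p = 0.0299), and the amino acid carriers Slc7a3 and Slc3a2 by 1.31 and 0.32 (adjusted p = 0.0304 and 0.0476). Atf3 was at 5.29, 16.2 and 30.1 CPM and then 9.89, 28.5 and 53.7 CPM (log2 0.76, SE 0.131, adjusted p = 0.0231). The number that passed was 2, 1, 3 and 3 without WT batch 18, WT batch 19, WT batch 21 and HBM batch 18, and 7 without HBM batch 19 or HBM batch 21. Of 20 chaperones and unfolded protein response genes of the endoplasmic reticulum, only Herpud1 passed, a degradation factor (0.25, adjusted p = 0.034), and the list's median was -0.046.

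The 2 promoters of this list shown here hold the composite site at which ATF4 pairs with a C/EBP factor. They are 150 bases before the RefSeq start in GRCm38.p6, both on the minus strand, Nupr1 at chr7:126625471-126625620 and Atf3 at chr1:191183334-191183483, with the 1 match in each to the letters TGATGNAA, searched on both strands, in capitals.
Nupr1: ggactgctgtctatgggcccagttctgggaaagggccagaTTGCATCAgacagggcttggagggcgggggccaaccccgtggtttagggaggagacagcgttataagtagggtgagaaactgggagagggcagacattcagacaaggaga
Atf3: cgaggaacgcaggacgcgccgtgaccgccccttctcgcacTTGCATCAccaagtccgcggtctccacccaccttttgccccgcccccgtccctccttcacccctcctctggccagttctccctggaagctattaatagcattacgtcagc
In both genes the match begins 110 bases before the start. The letters were in 2.4% of all windows, 5.3% of those of risen genes, 1.2% of those of fallen genes and 8 of 21 windows (38.1%) of the stress response list. These shares were not tested.

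**Figure D4:**
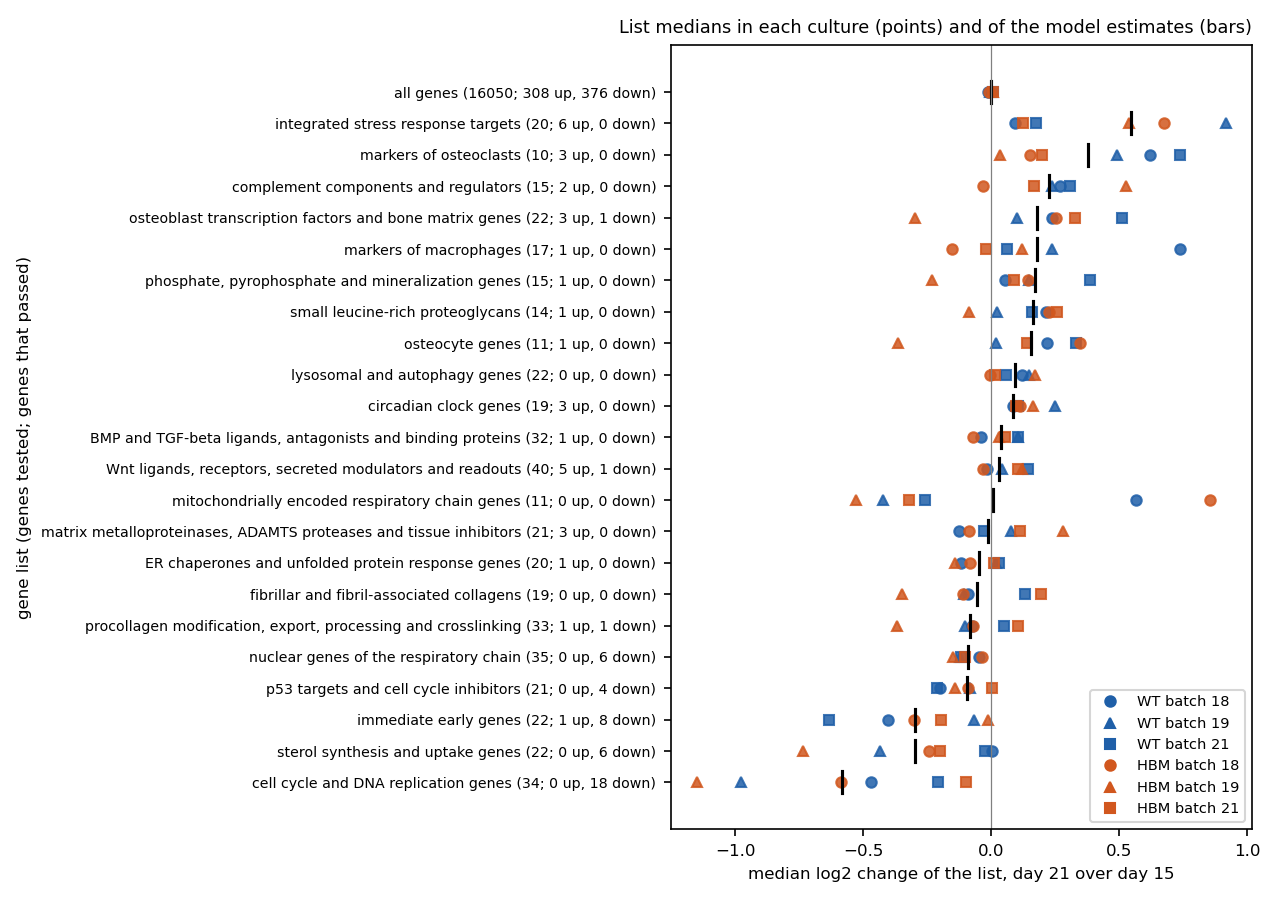
Rows are gene lists, points the median log2 change of a list in each of 6 cultures and bars the median of the model estimates; the labels give the genes tested and the genes that passed in each direction. All genes tested lie at 0, the cell cycle list reaches -1.15 in HBM batch 19, and the stress response list reaches 0.916 in WT batch 19.

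Secreted signals changed gene by gene. Of 40 Wnt genes, 5 rose and 1 fell, beside 1.92% and 2.34% of all genes, and the list's median was 0.03. Without WT batch 18, WT batch 19 and WT batch 21, 3, 2 and 3 rose and 0 fell. Sfrp4, a secreted Wnt antagonist, was at 5.72, 7.56 and 13.2 CPM and then 9.25, 17.0 and 21.2 CPM (log2 0.96, SE 0.121, adjusted p = 0.00972). The receptor Fzd5 rose by 0.29 (adjusted p = 0.00972) in 6 of 6 cultures, Fzd8 by 0.19 (adjusted p = 0.038) and Lrp4, a receptor that binds sclerostin, by 0.35 (adjusted p = 0.0231). The ligand Wnt4 rose by 1.16 (adjusted p = 0.0185) at no more than 3.99 CPM, and Wnt10a fell by 1.49 (adjusted p = 0.0251) from at most 0.557 CPM. Gdf10 was the 1 of 32 BMP and TGF-beta genes to pass and Igfbp5 the 1 of 12 IGF genes. Ecm2 was the 1 of 14 small leucine-rich proteoglycans and relatives to pass (0.36, adjusted p = 0.00935). Fibromodulin (Fmod), a proteoglycan that shapes collagen fibrils, did not overlap between the days, at 3170 to 3830 CPM and then 3960 to 5160 CPM, and did not pass (0.25, SE 0.0673, adjusted p = 0.0683).

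Of the matrix metalloproteinases 3 rose among 21 proteases and inhibitors whose median was -0.014, beside 1.92% of all genes that rose. Mmp3, stromelysin, was at 2.07, 2.87 and 5.65 CPM and then 3.42, 6.18 and 9.97 CPM (log2 0.87, SE 0.112, adjusted p = 0.00972). Mmp13, the collagenase of bone, was at 189, 264 and 621 CPM and then 201, 466 and 799 CPM (log2 0.55, SE 0.128, adjusted p = 0.0469), higher in 5 of 6 cultures. Mmp9, a gelatinase abundant in osteoclasts, rose by 0.78 (SE 0.169, adjusted p = 0.0396). Without WT batch 18, WT batch 19 or HBM batch 21, 1 of the 21 rose.

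Osteoclasts are the bone-resorbing cells formed from macrophage precursors. Of 10 tested markers 3 rose, Atp6v0d2, Acp5 and Mmp9, beside 1.92% of all genes, and all 10 had a value above 0, with a median of 0.378. The list's medians were 0.62, 0.493 and 0.739 in the WT cultures of batches 18, 19 and 21 and 0.151, 0.036 and 0.197 in the HBM cultures, and the difference between the genotypes was not tested for the list. Atp6v0d2, a subunit of the proton pump that osteoclasts use to dissolve mineral, was at 3.51, 17.6 and 40.1 CPM and then 7.14, 43.7 and 76.1 CPM (log2 1.21, SE 0.189, adjusted p = 0.018). Acp5, tartrate-resistant acid phosphatase, was at 15.2, 29.2 and 53.4 CPM and then 21.6, 37.4 and 74.6 CPM (log2 0.36, SE 0.0699, adjusted p = 0.0304). Dcstamp, which fuses osteoclast precursors, was higher in 6 of 6 cultures and did not pass (1.37, SE 0.351, adjusted p = 0.0598). The calcitonin receptor (Calcr), a marker of mature osteoclasts, was at no more than 0.116 CPM. The summed level of the list was 416 to 759 CPM at day 15 and 576 to 837 at day 21, most of it from Ctsk, which osteoblast cultures can also express. None of the 10 passed without WT batch 18, WT batch 19 or both cultures of batch 18, and 1 passed without WT batch 21.

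Macrophage markers were present in every culture, at a summed 2520 to 11300 CPM at day 15 and 2160 to 10600 at day 21. Of 17 markers 1 rose, beside 1.92% of all genes: the scavenger receptor Cd163, from at most 3.86 CPM (0.74, SE 0.17, adjusted p = 0.0457). The list's median was 0.178, at 0.737 in WT batch 18 and between -0.154 and 0.237 in the other five. Cd68, a lysosomal protein of macrophages, gave 0.34 (SE 0.106, adjusted p = 0.0936). F13a1, Ccl8 and Cx3cr1, the fractalkine receptor, are known from macrophages as well: Ccl8, a chemokine, rose by 1.33 (adjusted p = 0.0132) and Cx3cr1 fell by 1.11 (adjusted p = 0.0255). The part of these cells in such changes was not tested. Of 15 complement genes 2 rose, beside 1.92% of all genes, and the list's median was 0.228. Serping1, the C1 inhibitor, rose by 0.41 and C4b by 0.51 (adjusted p = 0.034 and 0.0479). Of the 15, 0 rose without any 1 of the WT cultures or HBM batch 21, and 4 rose without HBM batch 18.

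The other cell type lists showed few calls, beside 1.92% of all genes that rose and 2.34% that fell. None of 13 adipocyte, 16 chondrocyte, 7 endothelial and 7 neural markers passed. Of 12 tested smooth and skeletal muscle markers Actg2, an enteric smooth muscle actin, fell by 0.35 (adjusted p = 0.037). The endothelial genes Tie1 and Cldn5 had no count in any of the 12 libraries. No lymphocyte, neutrophil or red cell marker was tested, and Cd3e, S100a9 and Hbb-bs had no count in any of the 12. Of 16 markers of suture, fibroblast and periosteal cells Gli1, a target of Hedgehog signalling, rose by 0.58 (adjusted p = 0.0231) and Ly6a fell by 0.22 (adjusted p = 0.0469).

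Nuclear genes of the respiratory chain moved by small amounts in the same direction. Of 35, 6 fell and 0 rose, beside 2.34% of all genes that fell, 34 had a value below 0, and the median was -0.091. With the length and GC offset 3 fell and 32 had a value below 0. Ndufa4, a subunit of cytochrome c oxidase, was at 82.3, 111 and 120 CPM and then 74.0, 90 and 100 CPM (log2 -0.28, SE 0.0409, adjusted p = 0.0165). Ndufb8 and Ndufb9 of complex I, Atp5o of the ATP synthase and Cox6c and Cox7b of cytochrome c oxidase fell by 0.16 to 0.19. The 11 tested respiratory chain genes of the mitochondrial genome gave 0 calls and split by batch, with medians of 0.565 and 0.855 in the WT and HBM cultures of batch 18 and between -0.526 and -0.26 in the other four. Mitochondrial genes took 0.774% to 1.43% of counts at day 15 and 0.877% to 1.36% at day 21. Without WT batch 19, 0 of the 35 nuclear genes passed, and without WT batch 18, WT batch 21, HBM batch 18, HBM batch 19 and HBM batch 21, 1, 1, 2, 3 and 1 did.

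Several smaller lists had 2 to 4 calls, beside 1.92% of all genes that rose and 2.34% that fell. Of 19 circadian clock genes Hlf, an output factor, rose by 0.65, Bhlhe41, a repressor, by 0.26 and Npas2, a paralog of Clock, by 0.32, with adjusted p = 0.0255, 0.0406 and 0.0498. The hour of harvest is not given in the labels. Of the 19, 0 rose without WT batch 18, WT batch 19 or HBM batch 18 and 1 without any of the other three cultures. A list of 21 genes held p53 targets, cell cycle inhibitors and the lamin Lmnb1, which is neither. Of the 21, Ccng1, Lmnb1, Btg2 and Pmaip1 fell, by 0.28, 0.66, 0.57 and 0.39, beside 2.34% of all genes, and 0 rose. Without WT batch 18 or WT batch 19, 0 of the 21 fell, and without WT batch 21 or HBM batch 18, 1 fell. Of 23 glycolysis and hypoxia genes Ndrg1 and Car9, a carbonic anhydrase induced by hypoxia, rose by 0.29 and 0.39. Of the 23, 13 had a value below 0, and the median was -0.026. None rose without WT batch 19, HBM batch 18, HBM batch 19 or HBM batch 21, and 1 fell without HBM batch 19. Of 14 oxidative stress genes Gpx3 and Gstm1 rose by 0.43 and 0.25, and the median was 0.049. None of the 14 rose without WT batch 18, WT batch 21 or HBM batch 18. Saa3, an acute phase protein, rose by 1.67 (SE 0.374, adjusted p = 0.0435) from at most 0.856 CPM. Interferon (25 genes), elastic fibre (14), lysosomal (22) and Notch (12) lists had 0 calls, with medians of -0.021, -0.121, 0.093 and 0.034.

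Each genotype alone gave fewer calls. In WT 66 genes passed (0.411%) and in HBM 3 (0.0187%), Dio2, Aldh1a2 and Fbln7. The difference between the genotypes was tested directly in 16050 genes: 0 passed and 555 had an unadjusted p under 0.05. That count is below the share of about 0.05 met where no gene differs. The lowest adjusted p was 0.162, for Rgs1, a regulator of G protein signalling of leukocytes (1.68 in WT, 0.12 in HBM). DESeq2 called 2 genes, Rgs1 and Cd36, a fatty acid and scavenger receptor. With 3 cultures a genotype this does not show that the genotypes changed alike. All 684 genes of the shared comparison had the same sign in both genotypes, which the choice of genes favours, and the estimate was larger in WT for 383 of them. Among the genes with the smallest p for a difference were Itgax, an integrin of myeloid cells (1.87 in WT, 0.32 in HBM), and Tm4sf19, known from osteoclasts (2.0 and 0.16). Atp6v0d2 rose by 1.68 in WT and 0.74 in HBM (unadjusted p = 0.00306, adjusted p = 1.0). Cd180, a Toll-like receptor relative of myeloid cells, gave 0.55 and -0.08. Fosl1, an AP-1 subunit, gave -1.15 in WT and -0.02 in HBM, and Ankrd1, a target of YAP, gave -0.83 and -0.03. Neither difference passed, with adjusted p of 1.0 and 0.58.

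The level at days 0 and 10 places these changes. Dio2 had a median of 0.556 CPM at day 0 and 9.51 at day 10, below 28.9 at day 15 and 56.4 at day 21. Bglap had medians of 0.0881 and 85.3 CPM on the earlier days. Gdf10 went from 12.8 to 304 CPM between day 0 and day 10. Top2a had medians of 133, 71.2, 51.0 and 35 CPM on the 4 days. Trib3 did not follow 1 direction: its median was 75.6 CPM at day 0, 1.82 at day 10, 4.13 at day 15 and 13.3 at day 21. Slc7a3 and Soat2 were also lower at day 10 than at day 0, at 1.01 against 12.3 CPM and 0.154 against 1.53 CPM. With day 10 in the fit, 364 genes passed between day 15 and day 21, of which 321 were among the 684.

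**Figure D5:**
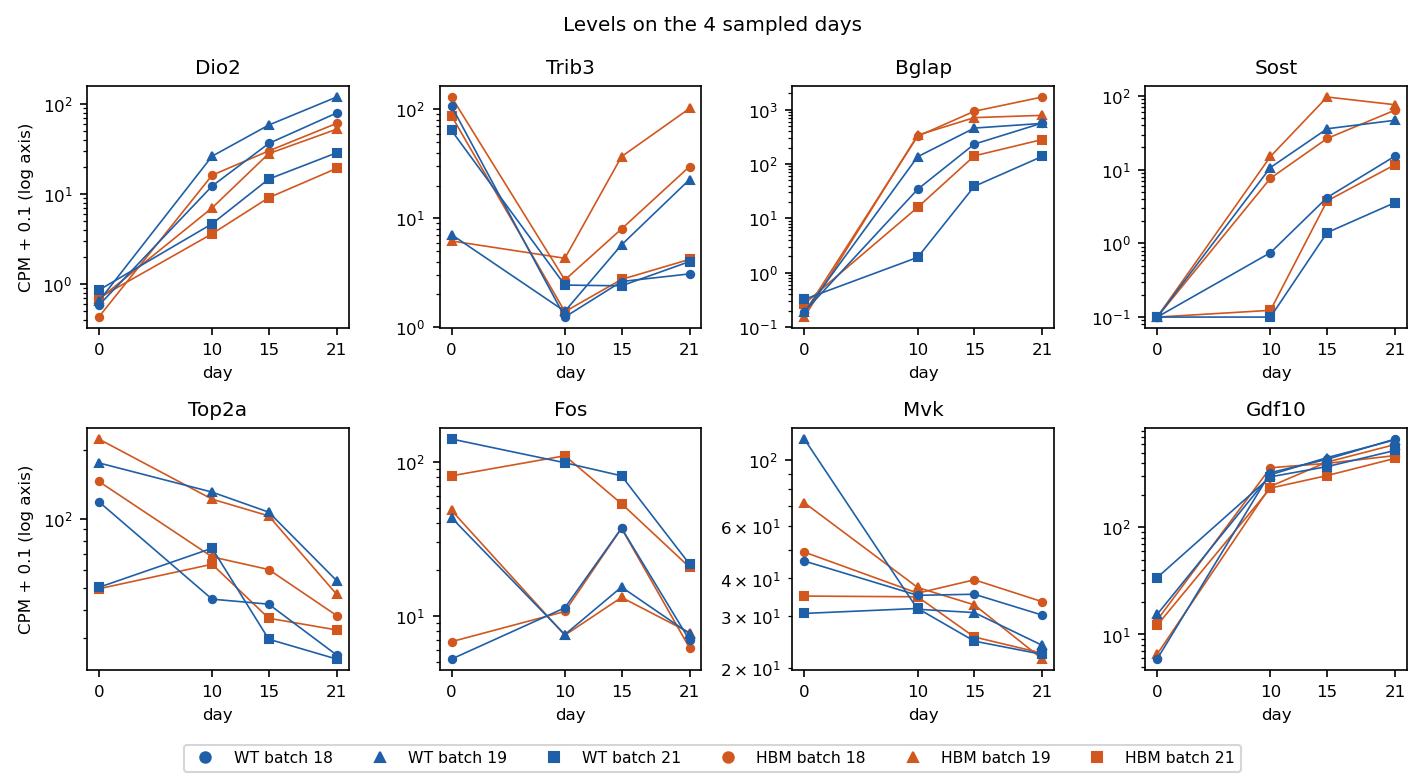
Each panel gives 1 gene's CPM plus 0.1 (log axis) against the day, with a line for each of 6 cultures; colours are the genotype and markers the batch. Dio2 climbs over the 4 days to a median of 56.4 CPM, Trib3 is lowest at day 10 with a median of 1.82 CPM, and Fos in batches 18 and 19 is higher at day 15 than at day 10 or day 21.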

How the data were processed

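The authors deposited a table of raw read counts per gene, and per the submitters' processing notes they used cutadapt 3.4, STAR 2.7.8a and featureCounts (Subread 2.0.1) with mm10. Their annotation release and strand setting were not found in the labels or headers, so a gene and an antisense partner could not be told apart. Of 54232 rows, 54164 matched GENCODE M21; the other 68 held at most 0.00337% of a library.

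The 12 libraries were fitted in R 4.3.3 with edgeR 4.0.16 (quasi-likelihood test, TMM factors 0.8821 to 1.126, edgeR's filter on low counts), with culture as a block and day as the tested term; the genotype difference was day by genotype. The culture block rests on the shared batch numbers and on the paired deviations given above. The common biological coefficient of variation was 0.0867. CPM used TMM factors of all 24 libraries. DESeq2 1.42.0 was an alternative, with other filters, scalings and left-out cultures. P-values measure the spread between these pooled cultures.

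The genes and lists were chosen with earlier results of these data known. Named genes were 15 fixed ones, then, among genes that passed with 1 direction in all 6 cultures and at least 1 CPM, the 12 largest changes, 8 smallest p and 8 highest levels per direction, up to 4 genes per list by p, and 5 per direction for the genotype difference. The text gives those its results turn on; other names were chosen after their values were seen, and a few genes are not reported here. These include Plk1, Birc5, Cdc20, Aurka, Fdft1, Klf2, Dusp1, Ier3, Slc3a2, Fzd8, Wnt10a, Cox6c, Cox7b, Ndufb9, Pmaip1 and Cd36, named to complete a count or as the strongest members.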

Additional observations from a re-analysis of the deposited data

Results flagged for a closer look

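Dixon's test was run on 135 of the genes named, and chance alone meets it in about 1 of 20 groups of 6. In 6 genes 1 culture's change stood apart from the other five, a count near what that share gives. Runx2 changed by -0.01 in HBM batch 19 and by 0.17 to 0.24 in the others, and Adm2 by 0.3 in that culture and by 1.65 to 2.36 in the others. Gdf10 changed by 0.24 in HBM batch 18, against 0.5 to 0.61. Cav1 changed by -0.65 in WT batch 19, against -0.43 to -0.3. Itm2a changed by -0.7 in WT batch 21, against -0.39 to -0.25, and Car9 by 0.04 there, against 0.39 to 0.55.

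In 3 genes all WT cultures moved one way and all HBM cultures the other way. The log2 change of HBM minus that of WT was -1.08 for Stap1, an adaptor of myeloid cells, 1.01 for Tinagl1, a basement membrane protein, and 0.41 for Trnp1, a nuclear protein of neural progenitors. Their adjusted p for the difference was 1.0. These genes were named because their p for the difference was among the smallest. Of all 16050 genes, 236 (1.47%) had their genotypes split this way.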

How the results depend on the processing

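The number of genes that changed between the days was 684, and it depended on the fit. It was 0 with no replicate block, 0 with all 24 libraries in 1 fit, 364 with day 10 in the fit, 1378 with no filter on low counts, 21 with WT and HBM summed within batch, 43, 214 and 385 without both cultures of batch 18, 19 and 21, and 44 among changes of at least 2-fold. Leaving out 1 culture gave 80 to 501 genes. DESeq2 called 514 higher and 473 lower, and a filter of at least 1 CPM in 6 libraries 357 higher and 292 lower. Those of the 684 genes that an alternative tested kept their direction under every alternative run, also where none passed. The choice of these genes from the same libraries favours that.

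For the genotype difference, DESeq2 called 2 genes and the fit with no filter 34, against 0; the fit with no replicate block and each fit that left out 1 culture gave 0. In WT the count of 66 became 0 with no replicate block, 341 with DESeq2, 909 with no filter, 1 with day 10 in the fit, 0 with all 24 libraries and 1 to 256 with 1 culture left out. In HBM the count of 3 became 0, 107, 475, 0 and 0 under the same alternatives and 1 to 6 with 1 culture left out. The cause of these changes was not tested.

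Some genes changed sign, and none of them had passed. The main estimates of Col1a1, Col1a2, Bmp1 and Pcolce were near 0. Those of Spp1, Ibsp and Mepe were 0.1, 0.18 and 0.41, with wide spreads between cultures. Single cultures ran from -0.65 to 0.64, from -0.84 to 0.91 and from -1.68 to 3.28. With no replicate block Col1a1 gave -0.0304, Col1a2 -0.0198, Ibsp -0.00593 and Mepe -0.107. Without WT batch 21, HBM batch 21 and both, Col1a1 gave -0.0408, -0.0112 and -0.107 and Col1a2 -0.0117, -0.000946 and -0.0969. With the length and GC offset they gave -0.0164 and -0.0123. Without both cultures of batch 21 Ibsp gave -0.165 and Spp1 -0.0426, and without both of batch 18 Spp1 gave -0.0756 and Mepe -0.166. Spp1 gave -0.0134 without WT batch 18. Bmp1 gave 0.000294 with DESeq2, 0.000283 with its size factors, 0.0109 with the CPM filter, 0.0358, 0.0557 and 0.114 without WT batch 19, HBM batch 19 and both, 0.0162 with day 10 and 0.0196 with summed genotypes. Pcolce gave 0.00681 with the CPM filter, 0.0274, 0.0076 and 0.0497 without WT batch 19, HBM batch 19 and both, 0.0142 and 0.00769 without HBM batch 18 and both of batch 18, 0.00683 with day 10 and 0.00389 with summed genotypes. Over the fits that left out 1 culture Col1a1 ran from -0.0408 to 0.121, Col1a2 from -0.0117 to 0.163, Bmp1 from -0.0494 to 0.0557, Pcolce from -0.0423 to 0.0274 and Spp1 from -0.0134 to 0.249. Genes of a few CPM rest on few counts, which limits the precision of their changes.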

Other observations

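Groups described here were put together after the values were seen, so their counts support nothing. Over all 16050 genes tested, 1.92% rose, 2.34% fell and 8030 had a value below 0. Of 16 sarcomere and muscle metabolism genes 8 rose and 5 had a value below 0. Of the 12 smooth and skeletal muscle markers tested above, 0 rose and 1 fell. In these cultures the muscle regulator Myod1 was at no more than 0.0571 CPM and muscle creatine kinase (Ckm) at no more than 0.0985 CPM. Actn3, the alpha-actinin of fast fibres, rose by 0.4 (SE 0.0473, adjusted p = 0.00925), from 13.6, 22.0 and 23.6 CPM to 17.2, 28.1 and 35.4. Myh1, a fast myosin heavy chain, rose by 0.68 (adjusted p = 0.0133), Pygm, muscle glycogen phosphorylase, by 0.84 (adjusted p = 0.0114), Mybpc1 by 0.67 and Myom1 by 0.36. Each was higher in 6 of 6 cultures. At day 0 Myh1 had a median of 0.0575 CPM, and at day 10 of 8.61 CPM. Cox6a2, the muscle form of a cytochrome c oxidase subunit, rose by 1.63 (adjusted p = 0.0407), with 1 culture at -0.69.

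Retinoid genes split: Aldh1a2 and Dhrs3 rose, by 0.89 and 0.29, while Crabp1, a retinoic acid binding protein, and Aldh1a7 fell, by 0.73 and 0.69 (adjusted p = 0.0165 and 0.0138). The Hedgehog receptor Ptch1 rose by 0.4 (adjusted p = 0.0432) beside Gli1. Of 85 cytosolic ribosomal protein genes 78 had a value below 0, with a median of -0.099. Of the 85, 3 fell (Rps27l, Rpl41 and Rpl39l), a share near the 2.34% of all genes. Of 38 proteasome subunits 37 had a value below 0 and 4 fell (Psma7, Psma5, Psmd14 and Psmb6), with a median of -0.095. Of 20 cytosolic aminoacyl-tRNA synthetases 2 rose, Lars by 0.3 and Nars by 0.28, and 15 had a value above 0. The part of transcript length in the ribosomal and proteasome values was not tested gene by gene.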
